A study of Mus musculus with 6 samples.

Results

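The glutathione and thiol antioxidant enzymes are the proteins that make glutathione, spend it on peroxides and reactive chemicals, and keep protein thiols reduced. Their genes were taken by name from a table of TPM values, a measure of transcript level scaled to transcript length and to the total of each library. The set held every symbol of the glutathione S-transferase classes Gsta, Gstm, Gstp, Gstt, Gsto, Gstk and Gstz, of the membrane-bound Mgst proteins, and of the Gpx and Prdx peroxidases. Gclc, Gclm, Gss, Gsr, Txn1, Txn2, Txnrd1 and Txnrd2 completed it. This gave 48 of the 24054 genes in the table. The samples were c-Kit+ splenocytes, that is spleen cells held by magnetic beads against CD117, a receptor of blood stem and progenitor cells, after lysis of red cells. The AML group (acute myeloid leukaemia) held 3 moribund mice with the genotype Flt3ITD/ITD, Dnmt3afl/- MxCre. Their Dnmt3a gene, which encodes a de novo DNA methyltransferase, had 1 floxed and 1 null allele, and Cre recombinase was under the interferon-inducible Mx promoter. The MPN group (myeloproliferative neoplasm) held 3 control mice with the genotype Flt3ITD/ITD, Dnmt3afl/fl, and their titles name no Cre. Both groups thus carried the internal tandem duplication of the receptor tyrosine kinase Flt3 on both alleles. The labels give no age, and genotype, Cre and disease changed together between the groups, so that their parts cannot be told apart.

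Glutathione is a small peptide of glutamate, cysteine and glycine. Glutamate-cysteine ligase makes the first bond and is the rate-limiting step, glutathione synthetase adds glycine, and glutathione reductase restores the oxidised form with NADPH. Glutathione peroxidases use it to reduce peroxides, and glutathione S-transferases couple it to electrophiles, including several cytotoxic drugs. The thioredoxin system runs beside it: thioredoxin reductase, a selenoprotein, reduces thioredoxin, which in turn serves the peroxiredoxins.

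Between 11780 and 12034 genes reached 1 TPM per library, and relative depth was 0.739 to 1.29 in the AML libraries and 0.936 to 1.04 in the MPN libraries. Kit, the transcript of the selected receptor, stood at 99.2 to 129.7 TPM in AML and 144.7 to 152 TPM in MPN. Dnmt3a averaged 12.6 ± 1.02 TPM in AML and 32.2 ± 2.53 TPM in MPN (SD, n = 3 each; adjusted p = 0.000879). Among the AML mice, replicates 1 and 2 expressed Xist and replicate 3 did not, as in all MPN mice, so that females occurred in the AML group only. Per the file headers, 5 libraries shared a sequencing run and MPN replicate 1 came from a different one. Marker genes of mature cells differed between the groups: the 10 neutrophil markers summed to 7434 to 21630 TPM in AML and 31747 to 50435 TPM in MPN, and the 11 macrophage markers to 81.3 to 191 TPM in AML and 405 to 534 TPM in MPN. The 9 stem and progenitor markers summed to 534 to 740 TPM in AML and 302 to 415 TPM in MPN. Much of the AML sum was Cd34, at 257 to 386 TPM in AML and 42.6 to 59.1 TPM in MPN. The list was mixed: 6 markers had every AML value above every MPN value, while 3 (Kit, Ly6a and Procr) had every AML value below. No gene of these 3 lists was listed at 0 in every library, and the part of the cell mix in the results below was not tested.

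Of the 48 enzyme genes, 6 were higher in AML and 0 were lower. The 6 were Gstm1, Gstm7, Gstt2, Gsto1, Mgst2 and Txnrd1, 5 of them transferases and 1 a thioredoxin reductase. The comparison was made with limma on log2(TPM + 1) for the 12223 genes that reached 1 TPM in 3 or more libraries, and called genes had a Benjamini-Hochberg adjusted p under 0.05. Among all genes tested, 30.1% were called, 20.1% as higher and 10% as lower in AML. Of the enzyme genes, 31 were tested, so the 6 calls are 19.4%, which is close to the share called as higher among all genes. This count includes Gstm7, which reached the level for the test only through the AML mice. At an unadjusted p under 0.05, 10 of the 31 were higher in AML and 0 lower. In either direction that is a smaller share than over all genes tested, where 5326 of 12223 had such a p. The 5326 were not split by direction. The AML and MPN values did not overlap for 11 of the 31, all of them with AML above, or 35.5%. Over all genes tested 50.9% did not overlap, 34.8% with AML above. The log2 fold change was positive for 22 enzyme genes and negative for 9, with a median of 0.23, against 0.13 over all genes tested. In bulk RNA such as this, a change in the number of cells of a type and a change in RNA per cell cannot be told apart.

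**Figure D1:**
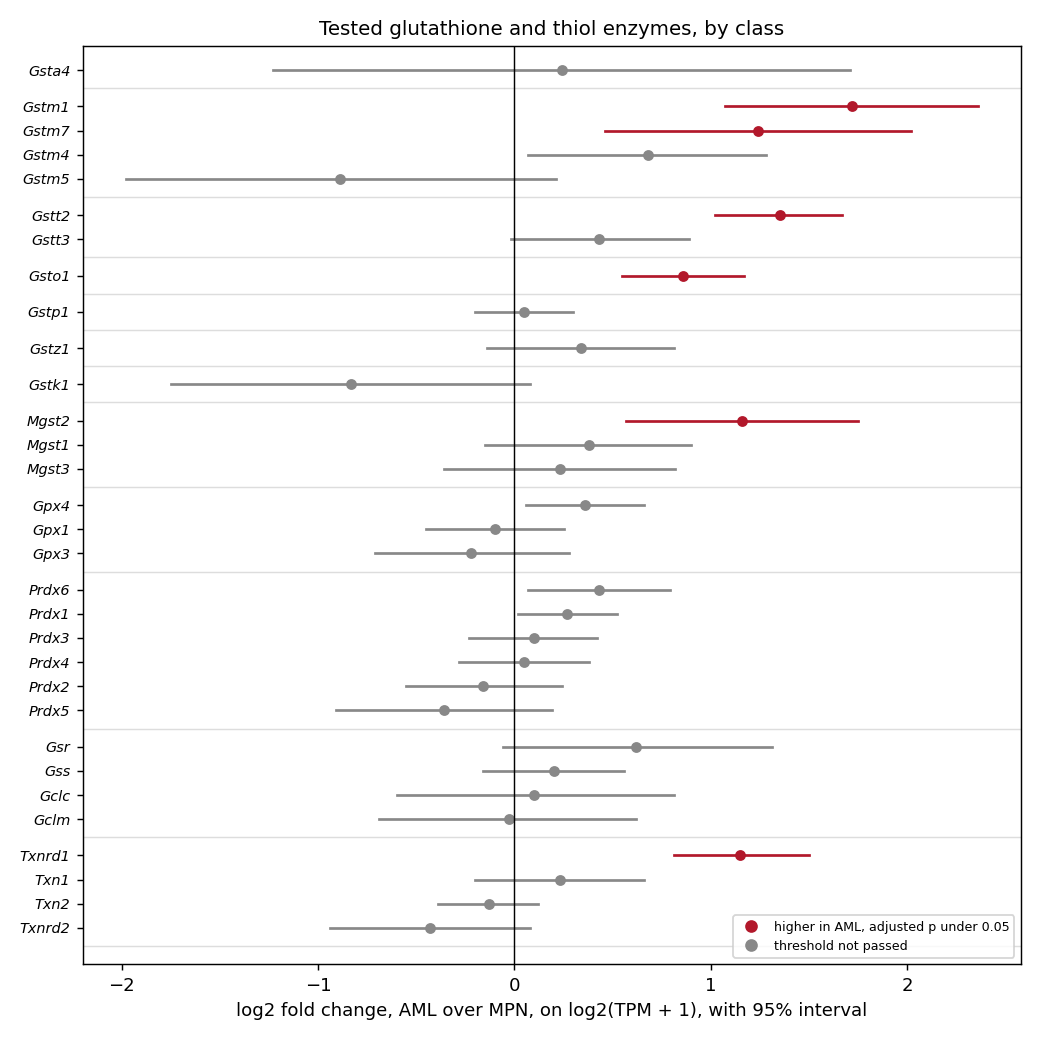
Log2 fold change of AML over MPN for the 31 enzyme genes tested, on the log2(TPM + 1) scale, with points for the estimate, lines for the 95% interval and grey rules between classes. The 6 genes past the threshold lie between 0.86 (Gsto1) and 1.72 (Gstm1), and the intervals of most others cross 0.

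The other 17 genes did not reach the level needed for the test. Gpx2, Gpx5, Gpx6, Gsta1, Gsta2, Gstm3 and Gstt4 were listed at 0 TPM in every library. Gpx7, Gpx8, Gsta3, Gsto2, Prdx6b, Gstm6, Gstm2, Gstp2, Gstt1 and the pseudogene Gpx2-ps1 reached at most 1.59 TPM in any library. Among these, Gstm2, Gstm6 and Gpx2-ps1 had every AML value above every MPN value, all at 1.57 TPM or less.

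Summed by class, the 9 Gpx genes gave 1497, 1889 and 1502 TPM in AML replicates 1 to 3, and 1597, 1584 and 1679 TPM in MPN replicates 1 to 3. The 7 Prdx genes gave 1374 ± 116 TPM in AML and 1370 ± 107 TPM in MPN (SD, n = 3 each). These peroxidase sums overlapped between the groups. The 21 transferases of the Gst classes summed to 938, 1152 and 824 TPM in AML, against 617, 581 and 561 TPM in MPN. Every AML mouse thus stood above every MPN mouse in the transferase sum, and the ratio of the means was 1.66. The sum over all 48 enzyme genes overlapped, at 5066, 5784 and 4638 TPM in AML and 4686, 4639 and 4279 TPM in MPN. Most of the difference in the transferase sum lay in Gstm1 (means of 335 TPM in AML and 96.2 TPM in MPN) and Gsto1 (270 and 148 TPM). Gstp1 had means of 253 TPM in AML and 244 TPM in MPN. The shares of single transferases differed as well, though shares of the same sum are not independent, since a rise in 1 lowers the others. Gstp1 made up 28.5%, 23.0% and 27.6% of the transferase sum in AML, and 38.9%, 44.1% and 42.3% in MPN, while Gstm1 made up 25.3%, 43.7% and 32.2% in AML, and 18.0%, 15.6% and 15.5% in MPN. Gsto1 made up 33.7%, 21.7% and 29.6% in AML, and 25.2%, 23.0% and 27.3% in MPN. Gstp1 led in every MPN mouse, while Gsto1 led in AML replicate 1 and Gstm1 in AML replicates 2 and 3.

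The mu-class transferases, which conjugate glutathione to epoxides and other electrophiles, held the largest fold change of the set. Gstm1 stood at 237, 503.1 and 266 TPM in the AML mice, against 111, 90.4 and 86.9 TPM in the MPN mice. The groups lay well apart, with AML replicate 2 far above the other AML mice. The log2 fold change was 1.72 ± 0.27 (SE; adjusted p = 0.00438), and without AML replicate 2 it was 1.38 (adjusted p = 0.00275). Gstm7 was much lower, at 1.76, 5.71 and 2.30 TPM in AML and 0.48, 0.63 and 0.93 TPM in MPN, and again AML replicate 2 was highest. Its log2 fold change was 1.24 ± 0.33 (SE; adjusted p = 0.0296). It reached the level for the test only through the AML mice, and its call was lost without MPN replicate 1, 2 or 3 (adjusted p = 0.0881, 0.0853 and 0.0689), with no filter (0.0504) and with a pseudocount of 5 (0.0543).

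Gstm4 stood at 11.5, 22.7 and 12.7 TPM in AML, against 10.3, 8.12 and 8.67 TPM in MPN. The groups did not overlap, but AML replicate 1 and MPN replicate 1 were close, and the log2 fold change of 0.68 did not pass (adjusted p = 0.0859; without AML replicate 1, 0.0493). Gstm4 passed under 2 of 16 alternative settings. Gstm5, a mu-class enzyme known from brain and testis, was the one tested mu gene with a negative value. It stood at 36.0, 21.0 and 8.66 TPM in AML and 47.1, 38.7 and 25.1 TPM in MPN, ranges that overlap. Its log2 fold change was -0.89 (95% interval -1.98 to 0.21; adjusted p = 0.186), and without AML replicate 1 it was -1.33 (adjusted p = 0.0458). Gstm5 passed under 3 of the 16 alternative settings. As a share of all mu-class transcripts, Gstm1 took 82.6%, 90.9% and 91.5% in AML, against 65.7%, 65.4% and 71.4% in MPN. The share of Gstm5 was 12.5%, 3.79% and 2.99% in AML, against 27.8%, 28.0% and 20.6% in MPN. The make-up of the class thus differed between the groups without overlap in either share. Both are parts of the same sum, so they are not separate differences, and the TPM of Gstm5 itself overlapped.

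The 7 mu genes lie side by side on chromosome 3 (GRCm38). Gstm5 is at chr3:107895821-107898686 on the plus strand. Gstm7, Gstm6, Gstm3, Gstm2, Gstm1 (chr3:108012255-108017973) and Gstm4 (chr3:108040408-108044894) follow on the minus strand. Within 200000 bases of this cluster the table held 12 other genes, of which 9 were tested. Ahcyl1, Ampd2 and Gnat2 were higher in AML, Cyb561d1 was lower, and 5 did not pass. Over all genes tested, 20.1% were called as higher and 10% as lower. Ampd2, an AMP deaminase gene, had a log2 fold change of 0.97 ± 0.20 (SE; adjusted p = 0.0118). Gnat2, which reached the level for the test only through the AML mice, had one of 0.80 ± 0.18 (SE; adjusted p = 0.0148). Of the stretches of 75 bases, the read length, in the annotated Gstm1 transcripts, 11.7% also occur in transcripts of other genes, mostly the pseudogene Gstm2-ps1, while Gstm4, Gstm5 and Gstm7 share none. An antisense gene covers 13.9% of the exonic bases of Gstm5, and the sources used here do not give whether counting used the strand.

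**Figure D2:**
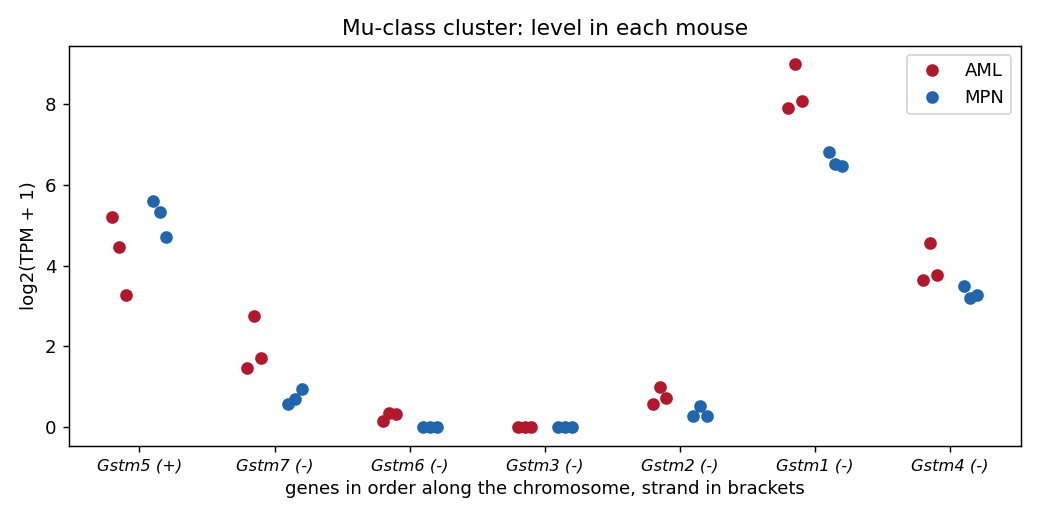
Level of the 7 mu-class genes as log2(TPM + 1) on the vertical axis, 1 point per mouse, in their order along the chromosome with the strand in brackets. Gstm1 is the highest gene in every mouse and lies at 237 to 503.1 TPM in AML, above 86.9 to 111 TPM in MPN, while the AML and MPN points of Gstm5 overlap.

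In the theta class only Gstt2 passed, with the smallest adjusted p of the called enzymes. Gstt2, known in rat and human for its action on sulfate esters and organic hydroperoxides, stood at 23.0, 24.2 and 20.3 TPM in AML, against 8.66, 8.05 and 7.98 TPM in MPN. Both groups were tight, and the lowest AML mouse was far above the highest MPN mouse. The log2 fold change was 1.35 ± 0.14 (SE; adjusted p = 0.000851), and it passed the threshold under all 16 alternative settings. Gstt3 stood at 6.99, 11.3 and 9.92 TPM in AML and 6.35, 6.93 and 6.46 TPM in MPN. All AML values were above the MPN values, the first only just, and the log2 fold change of 0.43 did not pass (adjusted p = 0.13; without AML replicate 1, 0.03). Gstt3 passed under 2 of these settings. Gstt2 and Gstt3 shared 0% and 11.5% of their 75-base stretches with other genes. The theta genes lie on chromosome 10 (Gstt2 at chr10:75831114-75837424, minus strand), and among 10 tested neighbours within 200000 bases Ggt1, Mif and Smarcb1 were higher in AML and Ggt5 and Derl3 lower. Over all genes tested, 20.1% were called as higher and 10% as lower. Ggt1 reached the level for the test only through the AML mice.

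Gsto1, the omega-class enzyme, carries a cysteine in its active site and reduces dehydroascorbate and mixed disulfides. It stood at 316, 249.7 and 244 TPM in AML, against 156, 134 and 153 TPM in MPN. The groups did not overlap, and the log2 fold change was 0.86 ± 0.13 (SE; adjusted p = 0.00395). Gsto2, its neighbour on chromosome 19, reached at most 0.24 TPM. Gstp1, the pi-class enzyme, stood at 267, 265 and 227 TPM in AML and 239.97, 256 and 237 TPM in MPN. Its log2 fold change was 0.05, with a 95% interval of -0.20 to 0.30, and -0.04 with median scaling. Its value is uncertain as to copy, because 29.2% of its 75-base stretches also occur in Gstp2.

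In the remaining soluble classes no gene passed. Gstk1, a transferase of mitochondria and peroxisomes, stood at 2.68, 11.1 and 6.16 TPM in AML and 10.5, 11.4 and 11.6 TPM in MPN. The MPN mice were alike, and AML replicates 1 and 3 were below them while replicate 2 reached their range. It had a log2 fold change of -0.83 (95% interval -1.75 to 0.08; adjusted p = 0.143), and of -1.25 without AML replicate 2 (adjusted p = 0.03). That was the 1 of 16 alternative settings under which Gstk1 passed. Gstz1, which also serves tyrosine breakdown as maleylacetoacetate isomerase, stood at 20.0, 33.2 and 23.5 TPM in AML and 21.4, 20.5 and 17.0 TPM in MPN. Gsta4, an alpha-class enzyme for the lipid peroxidation product 4-hydroxynonenal, stood at 13.5, 2.09 and 1.51 TPM in AML and 4.03, 3.64 and 1.93 TPM in MPN. AML replicate 1 alone was high for Gsta4, and the log2 fold change of 0.24 became -0.55 without that mouse, neither of which passed (adjusted p = 0.794 and 0.184).

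The membrane-bound transferases sit in the endoplasmic reticulum and the mitochondrial outer membrane. Mgst2, which in human cells can also make leukotriene C4, stood at 93.3, 159.9 and 83.6 TPM in AML, against 58.2, 41.3 and 45.0 TPM in MPN. The groups did not overlap, and AML replicate 2 was the highest. This gave a log2 fold change of 1.16 ± 0.25 (SE; adjusted p = 0.0141), and of 0.88 without AML replicate 2 (adjusted p = 0.0181). The call was lost without MPN replicate 2 or 3 (adjusted p = 0.0515 and 0.0595). Mgst1 stood at 69.3, 122 and 78.1 TPM in AML and 77.9, 56.7 and 67.9 TPM in MPN. Mgst3 stood at 74.6, 47.9 and 48.6 TPM in AML and 62.6, 48.6 and 34.7 TPM in MPN. Both overlapped between the groups and did not pass, with log2 fold changes of 0.38 (95% interval -0.15 to 0.90) for Mgst1 and 0.23 (95% interval -0.36 to 0.82) for Mgst3. Mgst2 made up 39.3%, 48.4% and 39.8% of the 3 genes' sum in AML, and 29.3%, 28.1% and 30.5% in MPN.

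**Figure D3:**
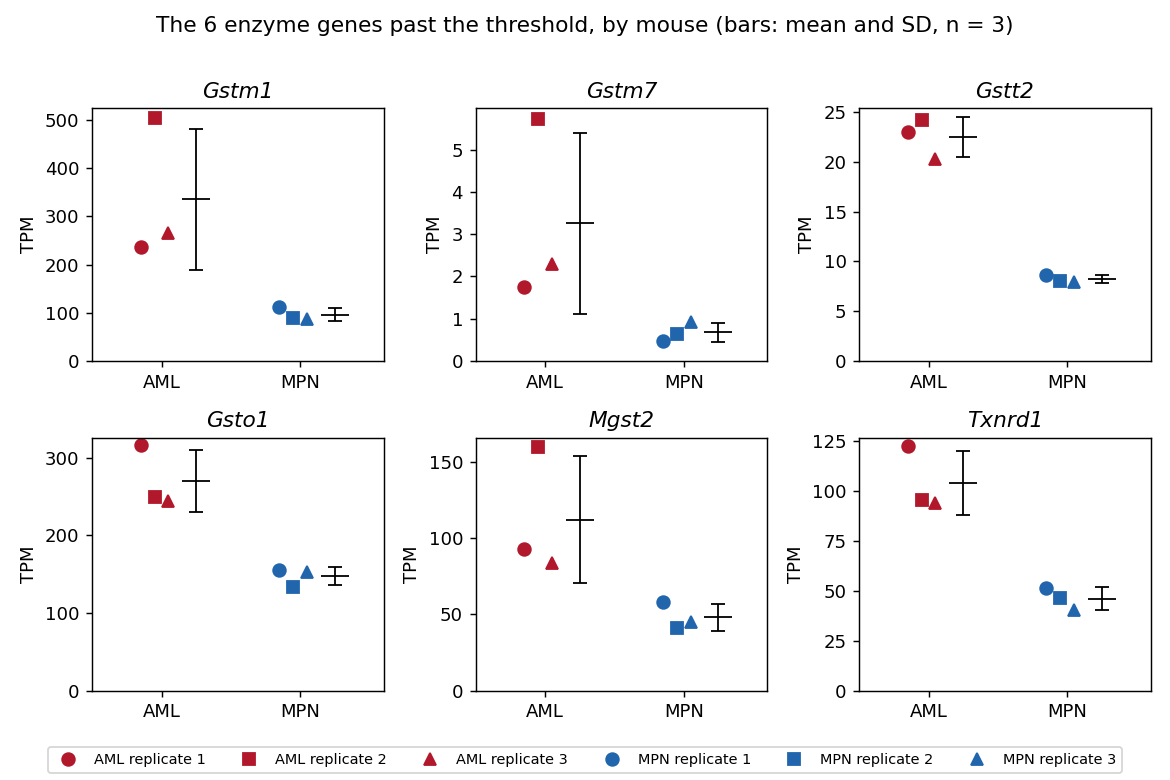
TPM in each mouse for the 6 enzyme genes past the threshold, with a linear vertical axis starting at 0, symbols for the replicates and bars for the mean and SD of 3 mice. No AML point overlaps the MPN points of the same gene, and AML replicate 2 stands apart for Gstm1 (503.1 TPM), Gstm7 (5.71 TPM) and Mgst2 (159.9 TPM).

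Among the glutathione peroxidases, 3 of 9 were tested and none passed with limma; 1 had an unadjusted p under 0.05. Gpx1, the cytosolic selenoenzyme for hydrogen peroxide, was the most abundant transcript of the whole set. It stood at 1066, 1514 and 1184 TPM in AML and 1302, 1303 and 1385 TPM in MPN. The AML mice spread around the MPN range, and the log2 fold change of -0.10 had a 95% interval of -0.45 to 0.25. Gpx4, which reduces phospholipid hydroperoxides and so restrains ferroptosis, stood at 426, 369 and 314 TPM in AML, against 289, 277 and 290.2 TPM in MPN. Its AML values were all higher than its MPN values. It had a log2 fold change of 0.36 (95% interval 0.06 to 0.66; adjusted p = 0.0705), and of 0.47 without AML replicate 3, where it passed (adjusted p = 0.0261). Without AML replicate 1 it was 0.25 (adjusted p = 0.131), and Gpx4 passed under 2 of the 16 alternative settings. Transcripts of the pseudogene Gpx4-ps2 share 29.8% of the 75-base stretches of Gpx4, so its value is uncertain as to copy. Gpx3, the secreted plasma form, reached at most 4.85 TPM.

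Among the peroxiredoxins, 6 of 7 were tested and none passed; 2 had an unadjusted p under 0.05. Prdx2, a cytosolic peroxiredoxin known for its abundance in red cells, stood at 411, 383 and 305 TPM in AML and 452, 446 and 329 TPM in MPN. Prdx5 stood at 201, 400.02 and 276 TPM in AML and 393, 318 and 375 TPM in MPN. These 2 had the highest mean levels of the family over all 6 libraries, and both overlapped between the groups. Trmt112, a gene on the opposite strand, covers 19.1% of the exonic bases of Prdx5, and whether counting used the strand is not given. Prdx1, the other main cytosolic form, had a mean of 332 ± 2.38 TPM in AML and 276 ± 27.7 TPM in MPN (SD, n = 3 each). Prdx6, which draws on glutathione in place of thioredoxin, had means of 192 ± 39.1 TPM in AML and 141 ± 9.51 TPM in MPN. Both had every AML value above every MPN value, and the log2 fold change was 0.27 for Prdx1 (adjusted p = 0.0932) and 0.43 for Prdx6 (adjusted p = 0.0745). Prdx6 passed under 2 of the 16 alternative settings, 1 of them without AML replicate 3 (0.56; adjusted p = 0.027). The mitochondrial Prdx3 and the endoplasmic reticulum form Prdx4 had log2 fold changes of 0.10 and 0.05, with 95% intervals of -0.23 to 0.42 and -0.28 to 0.38, and Prdx4 stood at -0.03 with median scaling.

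The 4 genes of glutathione synthesis and reduction did not pass, and none had an unadjusted p under 0.05. Gclc, the catalytic subunit of glutamate-cysteine ligase, stood at 61.3, 34.7 and 31.0 TPM in AML and 46.1, 43.5 and 26.4 TPM in MPN. Its partner Gclm, the modifier subunit, stood at 53.5, 47.2 and 30.5 TPM in AML and 53.3, 51.6 and 29.9 TPM in MPN. Both subunits varied more between mice of a group than between the group means. The log2 fold change of Gclc was 0.10 (95% interval -0.60 to 0.81) and that of Gclm was -0.03 (95% interval -0.69 to 0.62). Gss, glutathione synthetase, had means of 16.8 ± 1.84 TPM in AML and 14.5 ± 1.61 TPM in MPN. Gsr, glutathione reductase, was the most abundant of the 4, at 123, 131 and 134 TPM in AML and 139, 74.4 and 57.0 TPM in MPN. The AML mice were alike and MPN replicate 1 lay with them, apart from the other MPN mice. Gsr had a log2 fold change of 0.62 (95% interval -0.06 to 1.31; adjusted p = 0.144), and of 0.98 without MPN replicate 1 (adjusted p = 0.00981), the library of the other sequencing run. That was the 1 of 16 alternative settings under which Gsr passed.

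In the thioredoxin system, the cytosolic reductase was higher in AML, while its substrate and the mitochondrial pair did not pass. Txnrd1, the cytosolic thioredoxin reductase, stood at 123, 95.6 and 94.2 TPM in AML, against 51.5, 46.5 and 40.3 TPM in MPN. The groups were far apart relative to the spread within them. The log2 fold change was 1.15 ± 0.15 (SE; adjusted p = 0.00189), and it passed under all 16 alternative settings. Txn1, the cytosolic thioredoxin, stood at 457, 414 and 373 TPM in AML and 307, 468 and 303 TPM in MPN, with MPN replicate 2 above all AML mice. The mitochondrial reductase Txnrd2 stood at 19.7, 22.3 and 16.3 TPM in AML and 32.3, 29.1 and 19.3 TPM in MPN, which overlap, with a log2 fold change of -0.43 (95% interval -0.94 to 0.08; adjusted p = 0.168). Txn2, the mitochondrial thioredoxin, stood at 155, 166 and 152 TPM in AML and 181, 186 and 154 TPM in MPN, which overlap, with a log2 fold change of -0.13 (95% interval -0.39 to 0.12).

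Among the 5 libraries of the shared run, so without MPN replicate 1, 5 of the 6 calls held. Gstm1 had a log2 fold change of 1.82, Gstt2 of 1.38, Gsto1 of 0.90, Mgst2 of 1.30 and Txnrd1 of 1.24 (adjusted p = 0.0121 for Gstm1, 0.0047 for Gstt2, 0.0145 for Gsto1, 0.0238 for Mgst2 and 0.00592 for Txnrd1). A fit with a term for sex rests on AML replicate 3, the one male of its group, and takes its spread from the other mice. Over all genes this fit made 1208 calls in place of 3678. Under it Gstt2 and Txnrd1 passed (adjusted p = 0.0165 and 0.0296), and Gstm5 passed as lower (-1.93; adjusted p = 0.0296). Gstm1, Gsto1, Mgst2 and Gstm7 did not pass, at log2 fold changes of 1.46, 0.72, 0.80 and 0.98 in that order (adjusted p = 0.0569, 0.0572, 0.184 and 0.265).

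The AML mice differed among themselves, and most enzyme genes peaked in replicate 1 or 2. Of the AML values, those of 15 of the 31 genes were highest in replicate 1, of 15 in replicate 2 and of 1, Gsr, in replicate 3. Over all genes tested the shares were 48.8%, 28.1% and 23.1%. Replicate 1 was highest for Gsta4, Gstm5, Gclc, Gclm, Mgst3, Prdx2 and Prdx6, among others. Replicate 2 was highest for Gstm1, Gstm4, Gstm7, Mgst1, Mgst2, Gstz1, Gstk1, Gpx1 and Prdx5, among others. Cell markers differed between the same mice. The 13 erythroid markers other than haemoglobin summed to 1211, 409 and 167 TPM in AML replicates 1 to 3, and 1556, 1419 and 748 TPM in MPN replicates 1 to 3. The 7 markers of granulocyte-monocyte progenitors, with the myeloperoxidase gene Mpo the highest, summed to 3896, 10562 and 4990 TPM in AML, and 4627, 3306 and 3308 TPM in MPN. AML replicate 1 was thus the AML library richest in erythroid markers and replicate 2 the richest in granulocyte-monocyte progenitor markers. Replicate 2 also led the AML mice in neutrophil markers (7434, 21630 and 15348 TPM in replicates 1 to 3). The same held for monocyte markers (682, 1720 and 1039 TPM) and macrophage markers (81.3, 191 and 152 TPM), among others. Dendritic markers were highest in replicate 3 (432, 1156 and 1774 TPM). No gene of these lists was listed at 0 in every library. The part of these cells in the values of single enzymes was not tested.

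Beside the stem and progenitor markers, 3 other marker sums lay higher in every AML mouse, as the called enzymes did. They were those of stroma and endothelium, at 80.2 to 107 TPM over 9 genes in AML and 36.8 to 48.9 TPM in MPN, of megakaryocytes, at 128, 121 and 91.3 TPM over 7 genes in AML and 70.1, 55.6 and 38.5 TPM in MPN, and of mast cells and basophils, at 190, 229 and 119 TPM over 9 genes in AML and 117, 64.6 and 62.7 TPM in MPN. The stroma and endothelium sum rested on Pecam1 and Pdgfrb, which were higher in AML, while Kdr was lower and the other 6 markers were under the level for the test, with lower means in AML. The mast cell and basophil sum nearly met between AML replicate 3 and MPN replicate 1. Of the tested megakaryocyte markers 3 of 7 were higher in AML, and of the tested mast cell and basophil markers 3 of 6. Their part in the calls of Gstm1, Gstt2, Gsto1, Mgst2 and Txnrd1 was not tested.

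**Figure D4:**
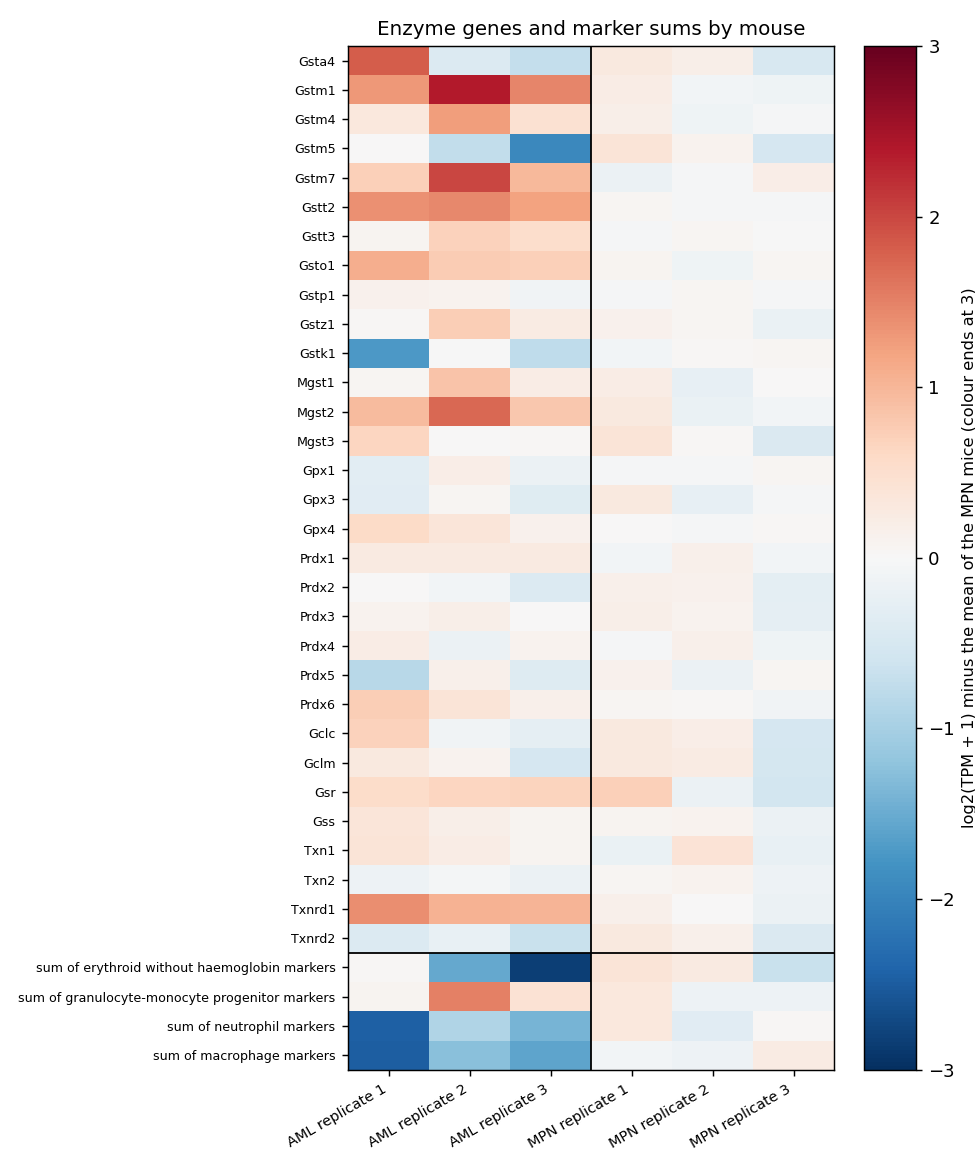
Difference of each mouse from the mean of the MPN mice in log2(TPM + 1), red for higher and blue for lower, for the 31 tested enzyme genes and for 4 sums of cell markers; columns are AML replicates 1 to 3 and then MPN replicates 1 to 3. Gstt2 and Txnrd1 are red in all AML mice, Gsta4 in AML replicate 1 only, and Gstm1 and Mgst2 deepest in AML replicate 2. Among the AML mice, replicate 2 had the highest sums of granulocyte-monocyte progenitor (10562 TPM), neutrophil (21630 TPM) and macrophage markers (191 TPM). The part of these cells was not tested.

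Several genes of these families are known to be controlled through the antioxidant response element, the DNA site where the transcription factor Nrf2 binds with a small Maf partner. The core of that site was searched as TGACNNNGC, on both strands, in RefSeq promoter windows on GRCm38.p6, from 250 bases before to 50 bases after each annotated start. It was found in 14% of all genes with a window (3781 of 27025) and in 17.3% of those tested here. Of the 48 enzyme genes 41 had a window, and 7 of these held the core, or 17.1%. Of the 31 tested genes 26 had a window and 6 held the core. Of the 6 called genes 5 had a window, and Gstm7 and Txnrd1 held it. Txnrd1 had 3 windows, and its site lies before a start inside the gene, which is annotated from chr10:82833951. The sites of the 6 tested genes are shown because they are the stretches these counts rest on, each with 10 bases on either side, along the strand of the gene and with the 9 bases of the core in capitals. In Gclm, Prdx1, Mgst1 and Txnrd1 the core reads on the opposite strand, so that the capitals show its reverse complement. The one overlap with the AP-1 motif TGAGTCA is in Prdx1.
Gstm7: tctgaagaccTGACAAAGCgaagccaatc
Txnrd1: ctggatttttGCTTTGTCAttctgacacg
Gstm5: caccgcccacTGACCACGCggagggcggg
Prdx1: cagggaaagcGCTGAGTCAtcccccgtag
Gclm: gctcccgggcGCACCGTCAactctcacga
Mgst1: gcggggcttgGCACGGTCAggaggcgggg
The stretches are at chr3:107931725-107931753 (minus strand) for Gstm7, chr10:82859104-82859132 (plus) for Txnrd1, chr3:107895802-107895830 (plus) for Gstm5, chr4:116685456-116685484 (plus) for Prdx1, chr3:122245413-122245441 (plus) for Gclm and chr6:138140461-138140489 (plus) for Mgst1. Genes with the core had values in both directions, among them Txnrd1 with a log2 fold change of 1.15 and Gstm5 with -0.89. A match of these letters describes the window and is no evidence of binding.

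Other genes of the pathway were read from 6 lists of 85 genes, of which 77 were tested. Of these, 15 were higher in AML and 8 lower, 29.9% in all, against 30.1% of all genes tested. Their median log2 fold change was 0.07. Among 14 tested genes of glutathione supply and turnover, 2 were higher and 2 lower. Ggt1, the gamma-glutamyltransferase that opens extracellular glutathione, stood at 4.31, 2.39 and 2.35 TPM in AML, against 0.32, 0.15 and 0.34 TPM in MPN. Its relative Ggt5, which acts on leukotriene C4, stood at 2.58, 3.77 and 2.56 TPM in AML, against 6.82, 6.95 and 10.3 TPM in MPN. Ggt1 reached the level for the test only through the AML mice. The log2 fold change was 1.63 for Ggt1 (adjusted p = 0.00255) and -1.18 for Ggt5 (adjusted p = 0.00761). Slc3a2, the heavy chain of the cystine transporter, was higher (0.54; adjusted p = 0.0159) and the dipeptidase Dpep2 lower (-0.86; adjusted p = 0.0429). The call of Dpep2 was lost without each mouse in turn except AML replicate 3. With a term for sex neither passed (adjusted p = 0.135 for Slc3a2 and 0.513 for Dpep2). Slc7a11, the light chain of that transporter, reached at most 0.67 TPM and was not tested.

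Among 13 tested genes of NADPH supply, 2 were higher and 2 lower. Idh2, the mitochondrial NADP-dependent isocitrate dehydrogenase, stood at 226, 266 and 213 TPM in AML, against 107, 104 and 107 TPM in MPN. Its log2 fold change of 1.13 ± 0.11 (SE; adjusted p = 0.000693) stood beside -0.01 for the cytosolic Idh1 (adjusted p = 0.982). Pgls, of the pentose phosphate path, was higher, with a log2 fold change of 0.32 (adjusted p = 0.0449). Mthfd2, of mitochondrial folate metabolism, and Nadk, the cytosolic NAD kinase, were lower, with -0.65 for Mthfd2 (adjusted p = 0.0108) and -0.46 for Nadk (adjusted p = 0.0345). Pgls and Nadk each lost their call without 5 of the 6 mice: Pgls kept it without MPN replicate 3 and Nadk without AML replicate 3. With a term for sex, Pgls, Mthfd2 and Nadk did not pass (adjusted p = 0.265, 0.12 and 0.388), while Idh2 did.

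Among 20 other thiol redox genes, 6 were higher and 2 lower. Msrb3, a methionine sulfoxide reductase, stood at 32.2, 27.5 and 14.5 TPM in AML against 0.76, 0.57 and 0.39 TPM in MPN. It reached the level for the test only through the AML mice, and had a log2 fold change of 3.97 ± 0.29 (SE; adjusted p = 0.000262). Srxn1, sulfiredoxin, which repairs overoxidised peroxiredoxins, stood at 9.22, 9.27 and 8.31 TPM in AML, against 2.43, 3.10 and 1.4 TPM in MPN. Txnrd3, the third thioredoxin reductase gene, stood at 18.7, 10.3 and 11.4 TPM in AML, against 5.18, 4.11 and 3.31 TPM in MPN. Both were separated between the groups, by a log2 fold change of 1.62 for Srxn1 (adjusted p = 0.00251) and 1.45 for Txnrd3 (adjusted p = 0.00628). The glutaredoxin gene Glrx and the sestrin gene Sesn3 were lower, Glrx by a log2 fold change of -0.80 (adjusted p = 0.0114) and Sesn3 by -0.74 (adjusted p = 0.01). With a term for sex, Txnrd3, Glrx and Sesn3 did not pass (adjusted p = 0.0809, 0.106 and 0.12).

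Of 12 tested superoxide and peroxide enzymes and other Nrf2 targets, 1 was higher and 1 lower. Sod2, the mitochondrial superoxide dismutase, was higher (0.62; adjusted p = 0.0192), and lost its call without MPN replicate 2 or 3 (adjusted p = 0.0637 and 0.0626). Nor did it pass once sex was a term of the fit (adjusted p = 0.214). Hmox1, haem oxygenase, a gene also high in macrophages, stood at 9.36, 7.16 and 11.7 TPM in AML, against 31.7, 27.3 and 52.6 TPM in MPN. Its log2 fold change was -1.85 (adjusted p = 0.00328). Macrophage markers were also lower in AML, 9 of the 10 tested, and their part in the value of Hmox1 was not tested. Of 10 tested genes of Nrf2, its relatives and its regulators, 1 was higher and 1 lower. Nfe2, a relative of Nrf2 with roles in megakaryocytes and red cell precursors, was higher (1.67; adjusted p = 0.00159), and Bach2, a repressor known from lymphocytes, was lower (-1.39; adjusted p = 0.00755, and 0.108 with a term for sex). Of the 5 tested B cell markers 4 were lower as well, and their part in the value of Bach2 was not tested. Nfe2l2, the Nrf2 gene itself, had means of 58.1 ± 9.64 TPM in AML and 70.2 ± 7.53 TPM in MPN and did not pass (adjusted p = 0.214).

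Selenocysteine is the active residue of Gpx1, Gpx4, Txnrd1 and Txnrd2, and 3 of 8 tested genes on the list for its synthesis and insertion were higher in AML, with 0 lower (37.5%, against 20.1% of all genes tested). One of them, Tsen54, is a subunit of tRNA splicing endonuclease and no part of that path. Of the other 7 genes, 2 were higher (28.6%). Pstk, which phosphorylates the tRNA-bound serine, stood at 21.5, 15.1 and 18.9 TPM in AML, against 9.37, 9.65 and 7.37 TPM in MPN. Its log2 fold change was 0.99 ± 0.18 (SE; adjusted p = 0.00788). Sephs2, which makes the selenium donor, had a log2 fold change of 0.51 (adjusted p = 0.0295), and Tsen54 one of 0.40 (adjusted p = 0.0413). Tsen54 lost its call without any 1 mouse, and Sephs2 without any 1 mouse but AML replicate 3. With a term for sex none of the 3 passed (adjusted p = 0.0675 for Pstk, 0.381 for Sephs2 and 0.23 for Tsen54).

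**Figure D5:**
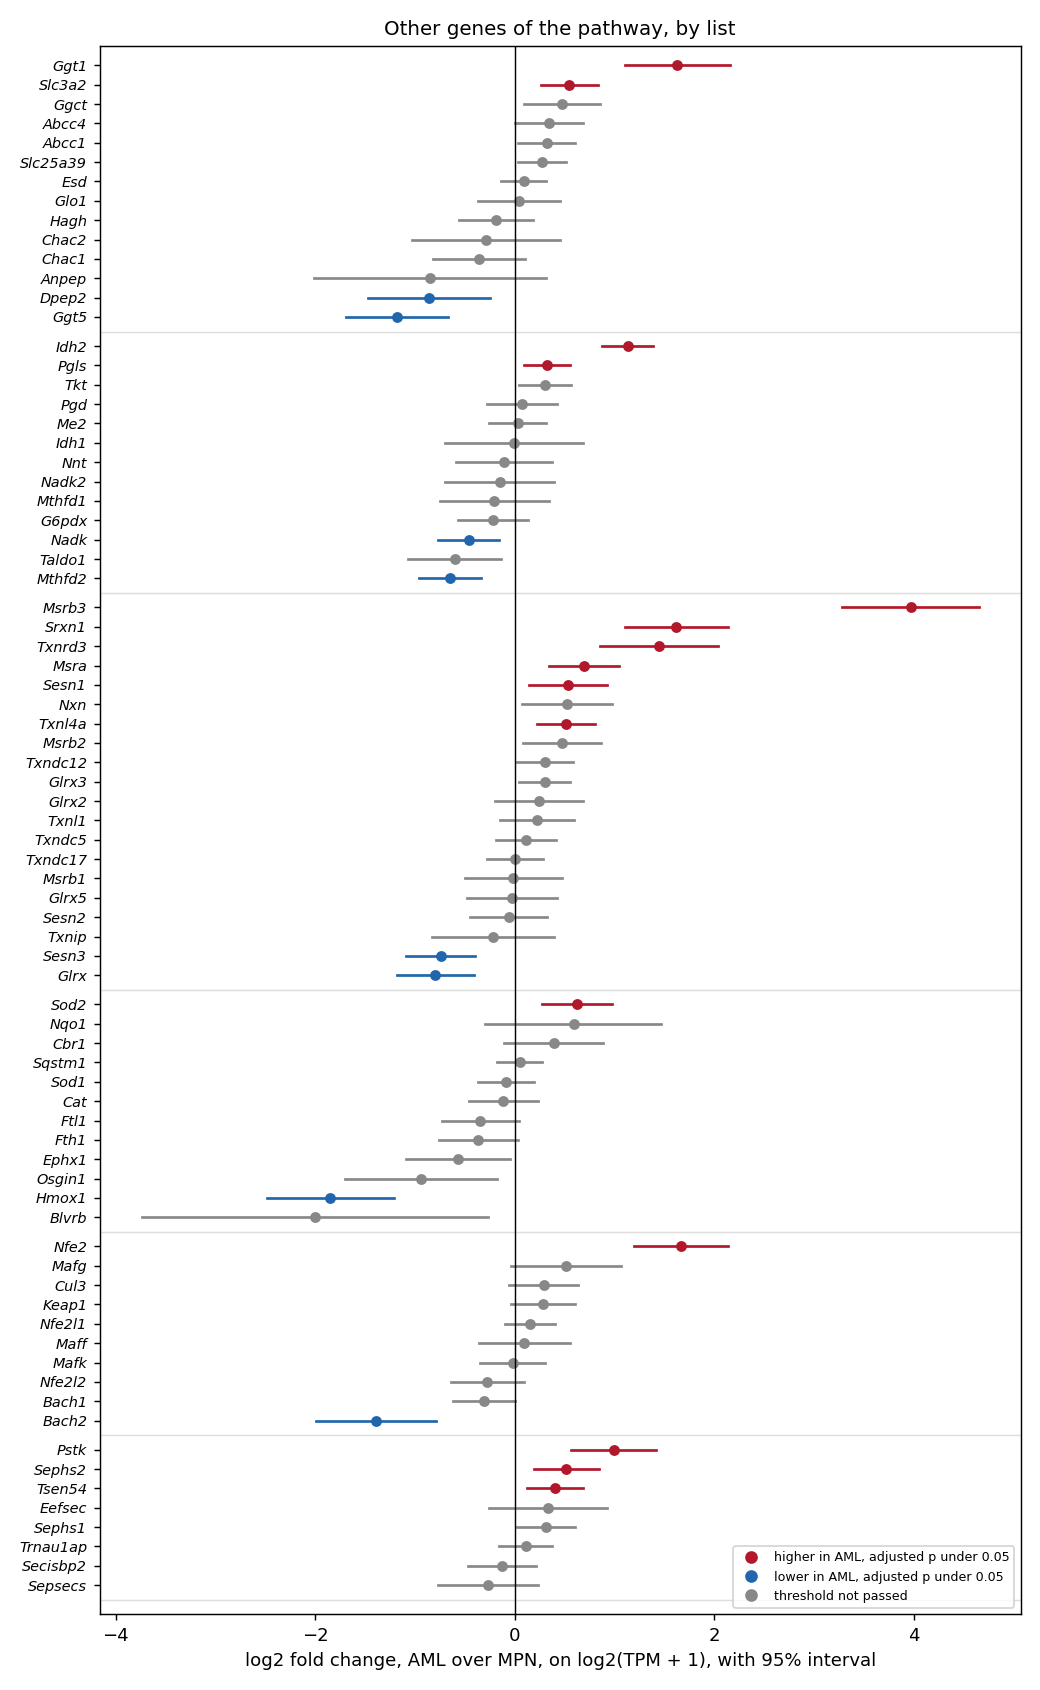
Log2 fold change of AML over MPN for the 77 tested genes of the 6 pathway lists, on the log2(TPM + 1) scale with 95% intervals; from top to bottom, glutathione supply and turnover, NADPH supply, other thiol redox proteins, superoxide and peroxide enzymes with other Nrf2 targets, Nrf2 regulators and selenoprotein synthesis. Red and blue points passed the threshold, from Hmox1 at -1.85 to Msrb3 at 3.97.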

How the data were processed

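Levels in TPM had been deposited by the authors with 1 column per mouse, as gene-level RSEM output per the file headers. The second table, of RPKM values, which divide reads by gene length and by library size, was also deposited by the authors, per Ensembl identifier. It served as an alternative and for relative depth: their low values step by 1 read (tolerance 0.01). TopHat2, RSEM and Bowtie2 and the builds mm9 and mm10 are named per the submitters' processing notes, without roles. Libraries were poly-A selected, stranded and read as pairs of 75 bases, per the labels' protocols. TPM keep no depth, so no counting interval is given.

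The groups were set against each other on log2(TPM + 1), that is with a pseudocount of 1, which understates changes of low genes. The tool was limma 3.58.1 (R 4.3.3) with its mean-variance trend and without covariates. A gene entered if it reached 1 TPM in 3 or more libraries, which 12223 did. Tests were two-sided, p-values were adjusted over all of them by Benjamini-Hochberg, and the threshold was 0.05. The script was tested on simulated data. Genes to name were the called enzymes and the 2 most abundant tested ones of each class, given with the value in every mouse, and in each pathway list the 3 called genes with the smallest p in each direction, some of which are given by fold change alone. Gstm4, Gclc, Gss, Gpx3, Prdx1, Prdx3, Prdx4, Prdx6, Mgst3, Txnrd2, Slc7a11, Idh1 and Nfe2l2 were added after their values were seen. Members and lists were chosen with earlier results of these data known. Positions are from GENCODE M21 (GRCm38). The labels name separate mice, and replicate numbers follow accession order and pair none. Alternatives were pseudocounts of 0.1 and 5, quantile normalization, median scaling, no filter, a filter at 5 TPM, array weights, no trend, the RPKM table, a term for sex and leaving out each mouse.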

Additional observations from a re-analysis of the deposited data

How the results depend on the processing

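Across 16 alternatives, 51 named genes gave 810 values, of which 707 kept direction and side of the threshold, 60 lost the call, 16 gained one and 27 changed sign, none of the last past the threshold. The cause was not tested. Gstt2 and Txnrd1 passed under every alternative. Genes called numbered 3678 and were 5436 with array weights, 1208 with a term for sex and 2009 to 3705 without 1 mouse, lowest without MPN replicate 2. Enzyme genes called numbered 6 and were 14 with array weights (12 higher, 2 lower; 45.2%, against 44.5% of all genes under that setting), 3 with a term for sex and 4 to 9 without 1 mouse, lowest without MPN replicate 2 or 3 and highest without AML replicate 1. Pathway genes called numbered 23 and were 36 with array weights (46.8%), 8 with a term for sex and 14 to 23 without 1 mouse, lowest without MPN replicate 2.

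Signs changed as follows, in log2 fold change. With array weights, Gclc stood at -0.27, Gpx1 at 0.05, Gpx3 at 0.06, Gsta4 at -0.43, Gstp1 at -0.00046, Prdx4 at -0.17, Prdx5 at 0.01 and Txn1 at -0.10. With a term for sex, Gclc stood at -0.27, Gsta4 at -0.70 and Gstp1 at -0.10. With median scaling, Gstp1 stood at -0.04 and Prdx4 at -0.03, with quantile normalization at -0.06 and -0.03, and in the RPKM table Gclm stood at 0.04. Without 1 mouse, Gclc lay between -0.19 and 0.29, Gclm between -0.29 and 0.20, Gpx1 between -0.24 and 0.01, Gsta4 between -0.55 and 0.71, Prdx3 between -0.04 and 0.18, and Prdx4 between -0.03 and 0.16.

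No paired analysis was possible because replicate numbers follow accession order and the labels pair no mice. Females occurred only in AML and the other sequencing run only in MPN, so neither can be separated from the groups in full. With 3 mice a group, an adjusted p above the threshold does not show that levels were alike.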

Other observations

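The deposited TPM and RPKM tables differed for near-identical copies. Gstp2 reached at most 1.09 TPM but stood at 38.2 to 44.7 RPKM, and 50.1% of its 75-base stretches also occur in other genes, mostly Gstp1. Gstm3 was listed at 0 TPM in every library but stood at 1.91 to 4.69 RPKM in AML and 0.68 to 1.01 RPKM in MPN, with a log2 fold change of 1.04 (adjusted p = 0.0251). The AML mice alone brought it to the level for the test, since only 1 MPN mouse reached 1 RPKM. It shares 21.6% of its stretches. The RPKM table held 44 of the 48 enzyme genes.

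Next to the theta-class genes, Mif, a cytokine gene, averaged 885 ± 207 TPM in AML and 319 ± 24.0 TPM in MPN (SD, n = 3 each), with a log2 fold change of 1.45 ± 0.17 (SE; adjusted p = 0.00136), a change of about the size of that of Gstt2 (1.35). Derl3, a gene of endoplasmic reticulum quality control in secretory cells, had one of -2.15 ± 0.31 (SE; adjusted p = 0.003). B cell markers were also lower in AML, 4 of the 5 tested, and their part in the value of Derl3 was not tested.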
